A study of Mus musculus with 24 samples.

Results

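The interferon response genes described here are 48 genes named by symbol, from the interferon receptors and their kinases to the antiviral effectors at the end of the pathway, and their mRNA was measured in the prefrontal cortex (PFC) of 24 male mice. The genes were listed by name, with no cutoff on a measured value, but the list was drawn up with earlier results of these data known. Of the 48 genes, 35 were among the 14074 genes of the count table, and each of these 35 had at least 10 reads in every library. The other 13 (Ifih1, Irf7, Usp18, Oasl2, Rsad2, Trim30a, Parp9, Parp14, Ddx58, Dhx58, Sp100, Iigp1 and Nlrc5), among them 3 of the 5 RNA sensors and RNA-directed enzymes, were not analysed here. The 35 genes measured were 6 of 6 receptors and kinases, 5 of 7 transcription factors and coactivators, 2 of 5 RNA sensors and RNA-directed enzymes, 2 of 3 genes of the ISG15 system, 5 of 6 GTPases, 2 of 4 genes of the PARP and DTX3L group and 13 of 17 antiviral effectors and other induced genes.

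All animals were wild-type C57BL/6 males with no transgene, aged 10 to 12 weeks. Control mice had no defeat stress, while stressed mice met an aggressive male of the CD1 strain daily for 30 days and were then divided by their behaviour during non-aggressive contact into a passive (PS) and an active (AS) coping phenotype, so that the phenotype is a behavioural class and not a genotype, and mice with atypical behaviour were left out. Within control, PS and AS animals, 4 mice received saline and 4 received dexamethasone (DEX, an agonist of the glucocorticoid receptor) at 2 mg/kg, and tissue was taken 6 h after the injection in both arms. Each mouse gave 1 poly(A) library of the dissected tissue block, with 21121869 to 59439645 reads on genes (median 24420130). Group medians with saline and with DEX were 22869703 and 23492572 in control, 24008146 and 24187702 in PS, and 34242532 and 37876626 in AS. Comparisons of AS with control or PS thus differ in depth as well as in phenotype. In such bulk tissue, fewer cells of a type and less RNA per cell cannot be told apart. The labelled treatment was seen in the glucocorticoid-induced genes Fkbp5, Tsc22d3 and Sgk1, which had all 4 DEX libraries above all 4 saline libraries in every phenotype. Of 8 neuron markers 8 were measured, which fits brain tissue but does not identify the PFC. None of 11 blood leukocyte markers looked for was among the genes of the table.

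Interferons are secreted by cells that sense viral nucleic acid or inflammation. Type I interferons bind the IFNAR1 and IFNAR2 receptor pair and interferon gamma the IFNGR1 and IFNGR2 pair, and kinases bound to the receptors, JAK1 in both and TYK2 at the type I receptor, then phosphorylate transcription factors of the STAT family. These bind the interferon-stimulated response element (ISRE), together with IRF9, or the gamma-activated site (GAS) in front of the target genes. In brain tissue the targets are transcribed at a low tonic level without infection, in vascular and microglial cells among others, and the glucocorticoid receptor is known to restrain inflammatory transcription.

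The ISRE core was searched as the letters GAAA, any 2 bases and GAAA on both strands, in the 250 bases before each RefSeq gene start (GRCm38.p6). It was found in 12 of the 32 members that had a promoter in the RefSeq table, and in 292 of 10032 genes of the count table that had one (2.91%). The members were listed as interferon response genes, so a share above that of all genes follows in part from the choice of the list. Of the 11 members that were lower after DEX in PS or AS animals (below), 6 held it (Gbp2, Gbp3, Gbp7, Ifit3, Igtp and Isg15), and of the 21 others with a promoter in the table, 6 did (Bst2, Ifit1, Ifitm2, Irf2, Irgm1 and Stat2). Windows around the core nearest the start are shown for 5 of the genes that fell, with the letters of every core in capitals, 5′ to 3′ on the strand of the gene.
Gbp2: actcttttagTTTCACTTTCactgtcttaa
Gbp3: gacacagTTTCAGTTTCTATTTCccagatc
Gbp7: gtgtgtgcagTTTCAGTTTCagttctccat
Isg15: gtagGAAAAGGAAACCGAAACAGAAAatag
Ifit3: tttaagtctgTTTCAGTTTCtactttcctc

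These windows lie at chr3:142620594-142620623 on the plus strand for Gbp2, chr3:142559992-142560021 on the plus strand for Gbp3, chr3:142530273-142530302 on the plus strand for Gbp7, chr4:156200871-156200900 on the minus strand for Isg15 and chr19:34583397-34583426 on the plus strand for Ifit3. Their nearest core ended 50, 30, 44, 57 and 113 bases before the RefSeq start of the respective gene. For Gbp2, GENCODE places the start of the gene before this core, so that its position relative to the transcript depends on the annotation. Isg15 carried 3 overlapping cores and Gbp3 a pair, and Ifit3 held 2 in its 250 bases, of which the window shows 1. The GAS core (TTC, any 3 bases, GAA, which reads the same on both strands) was in 8 of the 32 members with a promoter and in 6.79% of the genes of the table with one, and the core of the glucocorticoid response element (ACA, any 3 bases, TGT, likewise the same on both strands) was in 0 of the 32 and in 4.41% of those genes. These matches describe the letters of the windows and are no evidence of binding, and a window without a match says only that these letters are not in it.

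The level of the pathway with saline was compared first. Per kilobase of exon, the 35 genes spanned mean levels over all libraries from 23.5 normalized counts per kb for Rtp4, a chaperone of receptor transport induced by interferon, to 1292 for Ly6e, a GPI-anchored protein that limits viral entry. Adar, which edits adenosine in double-stranded RNA, and the kinase gene Jak1 followed at 743 and 741, while the GTPase genes Gbp2, Gbp3 and Gbp7 lay near the bottom at 31.3, 32.4 and 25.3 normalized counts per kb. As a mean of log2(normalized count + 1) over the 35 genes, the libraries of the control saline group stood at 8.05, 8.17, 8.13 and 8.14. Those of PS saline mice stood at 8.46, 8.13, 8.32 and 8.20, and those of AS saline mice at 8.25, 8.18, 8.43 and 8.18. The PS libraries overlapped the control libraries, and the lowest AS libraries were level with the highest control library. Group means were 8.12 ± 0.05, 8.28 ± 0.14 and 8.26 ± 0.12 (SD, n = 4), that is 0.15 log2 units above control in PS and 0.14 in AS.

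No member passed the threshold for a stress effect with saline. In limma (p adjusted by Benjamini-Hochberg over 14074 genes, called under 0.1), 0 of 35 were called in PS against control, where 5 had an unadjusted p under 0.05 and edgeR and DESeq2 also called 0, beside 1.51% of all genes called. In AS against control 0 were called, with 3 at an unadjusted p under 0.05, 0 by edgeR and DESeq2, and 0.156% of all genes called. Between AS and PS with saline 0 were called, with 1 at an unadjusted p under 0.05, 0 by edgeR and DESeq2, and 0% of all genes called. The fold changes leaned one way, with 26 of 35 above 0 in each phenotype and medians of 0.16 in PS and 0.15 in AS on the log2 scale, against 0.00 over all genes tested in both, but PS and AS refer to the same 4 control libraries, so these are not independent of each other. Several marker lists of other cells leaned the same way in these libraries, with 0 of their genes called in either phenotype. Microglia markers were above 0 in 14 of 16 in PS (median 0.15) and 16 of 16 in AS (0.21), leptomeningeal markers in 7 of 7 in both (0.43 and 0.51) and border macrophage markers in 4 of 5 and 5 of 5 (0.23 and 0.45), while oligodendrocyte markers were below 0 in 8 of 8 in both (-0.19 and -0.47). With the mean level of the microglia markers as a covariate, the median of the 35 members was 0.10 in PS and 0.00 in AS, and with that of the endothelial markers it was 0.17 and 0.12. The part of the other lists was not tested.

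The member with the smallest p in both was Irf1, a transcription factor that interferon gamma induces. It read 196, 161, 188 and 209 normalized counts in control saline libraries, 219, 224, 255 and 248 in PS and 261, 211, 245 and 220.4 in AS. All 8 stressed libraries lay above all 4 controls. The log2 differences were 0.33 (SE 0.11, limma, adjusted p = 0.198) in PS and 0.31 (SE 0.11, adjusted p = 0.326) in AS, and neither passed the threshold. Ifnar2, the signalling chain of the type I receptor, read 271, 283, 285 and 284 in control, 311, 317, 330.0 and 288 in PS and 333, 296, 325 and 327 in AS saline libraries. Its stressed libraries were likewise all above the controls, by 0.15 and 0.19 log2 units (limma, adjusted p = 0.406 and 0.361). Ly6e read 5604, 5289.7, 5304 and 4854 in control and 4131, 4755, 4494 and 4977 in PS saline libraries, which overlapped, a log2 difference of -0.20 (adjusted p = 0.247). Between the phenotypes, Irf2, a factor that shares its DNA site with IRF1, read 846, 925, 963 and 939.7 in PS and 1020.3, 943, 1026 and 1089.7 in AS. Ifit2, which binds viral RNA, read 492, 374, 363 and 350.0 and 306, 361, 349 and 328. Both pairs of groups overlapped, and the log2 differences of AS from PS were 0.15 for Irf2 and -0.22 for Ifit2 (limma, adjusted p = 0.934 each).

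DEX was compared with saline within each phenotype. Of the 35 members, 7 fell in PS, where 2.62% of all genes were called lower, and 7 in AS, where 4.95% were. Gbp2 and Gbp3, genes of guanylate-binding proteins, and Ifitm3 were in both. In control animals limma called no member, but it also called 0 of 35 for a difference of the DEX effect between phenotypes, as given further on. After DEX, the mean log2 level over the 35 genes was 8.27, 8.00, 8.02 and 8.14 in the 4 control libraries, 7.88, 7.73, 7.92 and 8.19 in PS and 7.79, 7.79, 8.01 and 8.18 in AS libraries. The difference of DEX from saline was -0.02 log2 units for controls, -0.35 for PS and -0.32 for AS. In PS and AS, 1 DEX library each (mouse 56 and mouse 72) reached into the range of the saline libraries, and the other 3 lay below it. No p is given for these means, since the list of genes was written with results of these libraries known. The plot of mean levels shows them beside 2 marker lists taken up further on.

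**Figure D1:**
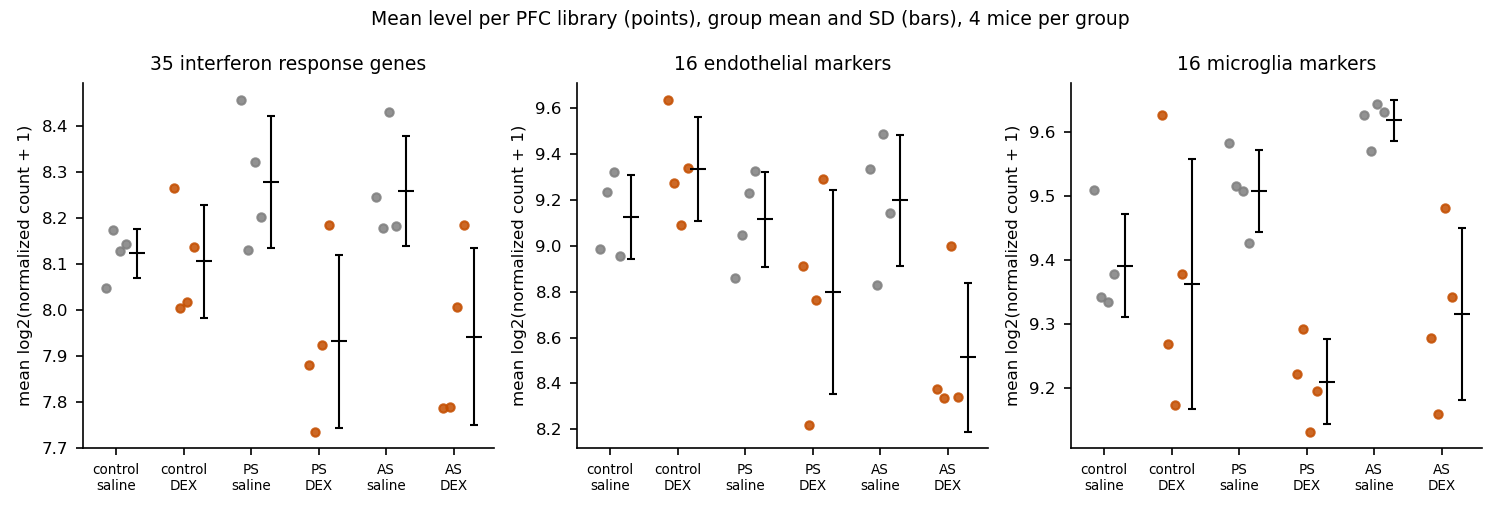
Mean log2(normalized count + 1) per PFC library over the 35 interferon response genes (left), 16 endothelial markers (middle) and 16 microglia markers (right). Points are libraries (grey saline, orange DEX), bars are the mean and SD of 4 mice, and the y axes do not start at 0. The interferon genes averaged 8.28 ± 0.14 with saline and 7.93 ± 0.19 with DEX in PS, and 8.26 ± 0.12 and 7.94 ± 0.19 in AS.

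In control animals, 0 of 35 members were called by limma, 2 had an unadjusted p under 0.05, and edgeR and DESeq2 called 0, beside 2.46% of all genes called lower and 4.03% called higher. In PS animals 7 were called lower and 0 higher, where 2.62% of all genes were called lower and 2.74% higher. In AS animals 7 were called lower and 0 higher, where 4.95% of all genes were called lower and 3.82% higher. In PS edgeR called 5 and DESeq2 7, and in AS both called 9. The shares of all genes in this paragraph are limma's, and none is given for edgeR or DESeq2. The limma calls in PS were Gbp2, Isg15, Gbp3, Ifit3, Gbp7, Ifitm3 and Igtp, and the AS calls were Gbp2, Gbp3, Ifitm3, Trim25, Irf1, Tyk2 and Ifnar2. Gbp2, Gbp3 and Ifitm3 were in both, which is 42.9% of either list, and 11 members were called lower in PS or AS, beside 5.79% of all genes. Counting members whose 4 DEX libraries all lay below the 4 saline libraries gave 1 in control (Ly6e), 5 in PS and 9 in AS, beside 4.32%, 4.57% and 5.02% of all genes. The median log2 fold change of the 35 was 0.01 in control, -0.26 in PS and -0.29 in AS, against -0.01, 0.00 and 0.00 over all genes tested.

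The counts moved when single libraries were left out. In control, 1 member was called without saline mouse 117 or DEX mouse 112. In PS the count was 3 without saline mouse 2 or DEX mouse 34 and 4 without saline mouse 62. In AS it was 3 without saline mouse 8 or DEX mouse 42, 4 without saline mouse 40 and 11 without DEX mouse 72. The share of all genes called in these fits is not given, so these counts are not set against it. Gbp2 and Gbp3 were called in PS and in AS without each of the 24 libraries in turn.

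**Figure D2:**
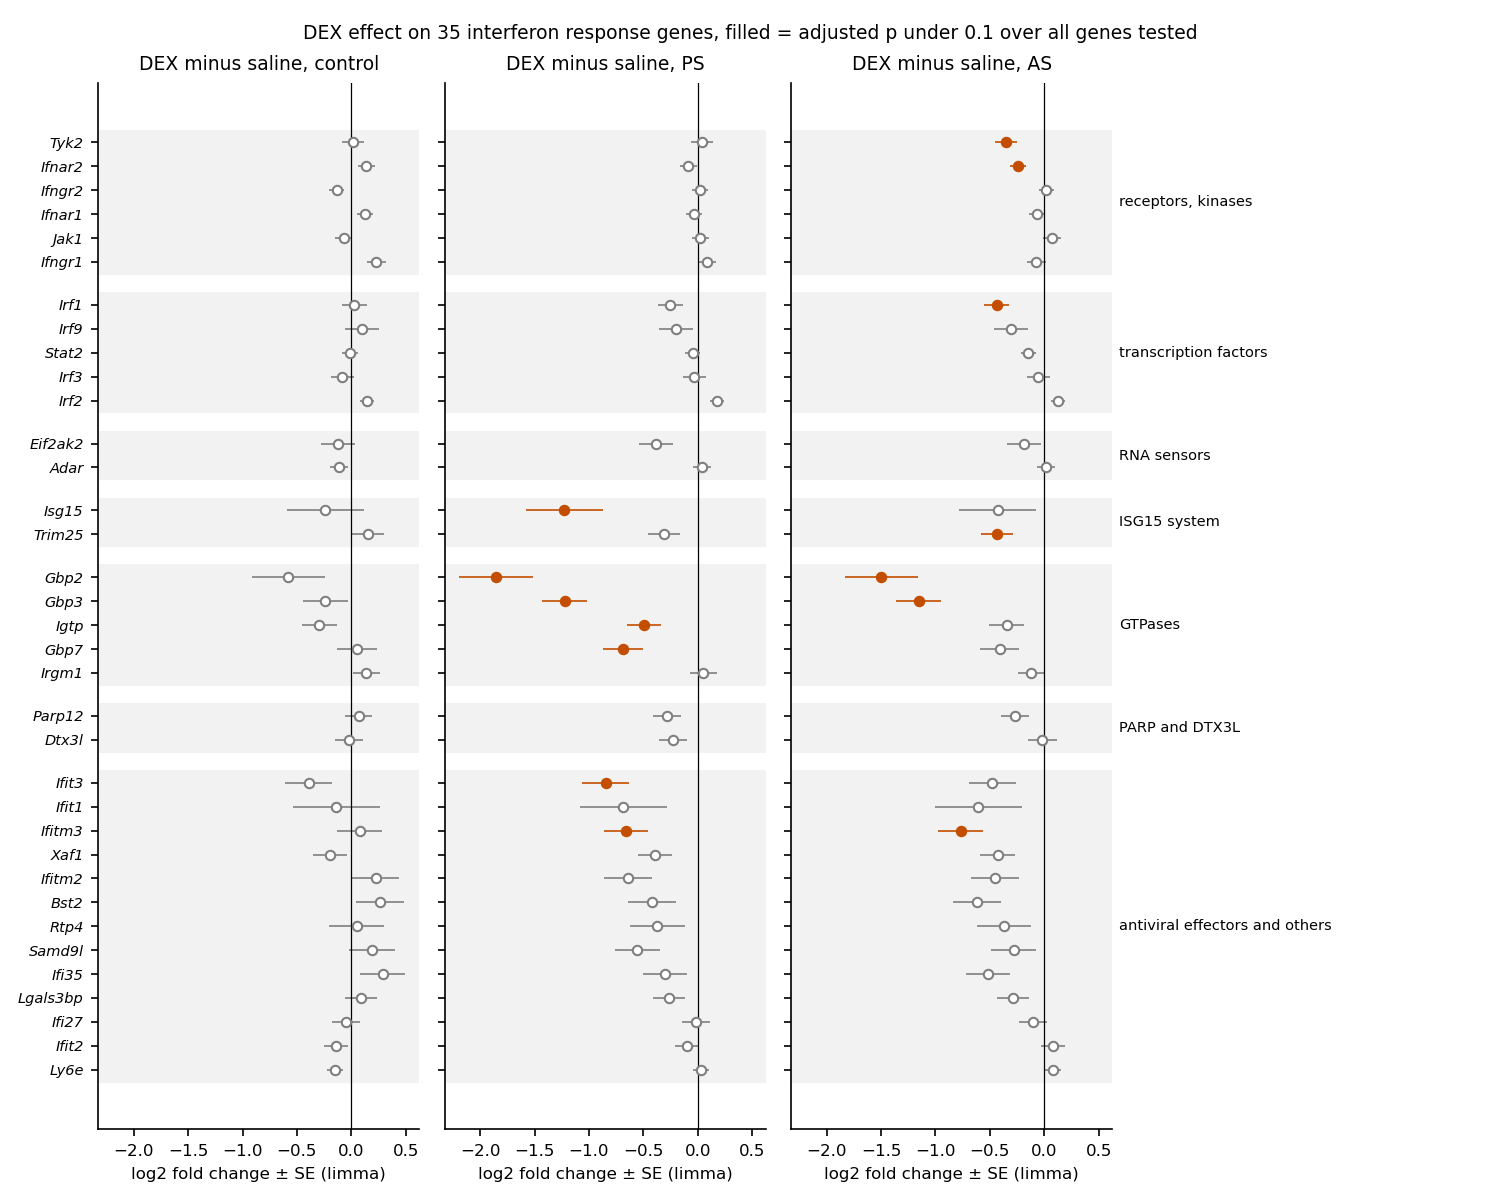
Log2 fold change of DEX against saline (x axis, limma, ± SE) for each of the 35 genes (y axis, grouped by role and sorted within a role by the average DEX effect) in control, PS and AS animals, 4 libraries per arm. Filled orange points have an adjusted p under 0.1 over 14074 genes. The calls are 0 in control, 7 in PS and 7 in AS, all to the left of 0, with Gbp2 and Gbp3 farthest from 0 in AS and Gbp2, Isg15 and Gbp3 in PS.

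The GTPases attack the membranes around intracellular pathogens. Of the 5 measured, 4 were called lower in PS (Gbp2, Gbp3, Gbp7 and Igtp) and 2 in AS (Gbp2 and Gbp3), beside 2.62% and 4.95% of all genes. The median log2 fold change of the 5 was -0.24 in control, -0.69 in PS and -0.41 in AS. Gbp2 (chr3:142620602-142638008, mm10), Gbp3 (chr3:142560026-142573209) and Gbp7 (chr3:142530342-142550149) lie in 1 cluster of protein-coding genes on the plus strand of chromosome 3. Their sequences are related, so that reads could be split between them in counting.

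In control mice, Gbp2 read 86.4, 116, 65.6 and 82.2 normalized counts with saline and 67.9, 50.6, 46.5 and 66.2 with DEX. PS libraries read 183, 79.1, 139 and 92.5 with saline and 40.4, 12.9, 35.2 and 53.3 with DEX. AS libraries read 123, 101, 154 and 115 with saline and 26.9, 31.4, 65.2 and 58.7 with DEX. The DEX and saline libraries were apart in PS and in AS and overlapped in control. The fall was 3.62-fold in PS (log2 -1.85, SE 0.34, limma, adjusted p = 0.00137) and 2.82-fold in AS (log2 -1.50, adjusted p = 0.00764), with -0.58 in control (adjusted p = 0.452). DEX mouse 34 of the PS group was the lowest of all 24 libraries for this gene.

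For Gbp3 the libraries read 132, 102, 101 and 149 with saline and 125, 89.1, 102 and 90.6 with DEX in control libraries. In PS it read 185, 109, 141 and 158 and 62.5, 46.5, 55.8 and 89.2, and in AS 129.9, 143, 161 and 119 and 54.4, 43.9, 80.9 and 72.5 normalized counts. The groups were again apart in PS and AS alone. Log2 fold changes stood at -0.24 for controls, -1.22 for PS and -1.15 for AS (SE 0.21, limma, adjusted p = 0.669, 0.000566 and 0.000918). Gbp7, of the same cluster, read 116, 130.3, 163 and 168 with saline and 157, 139, 136 and 163 with DEX in control libraries, which overlapped. It read 168, 154, 185 and 167 with saline and 107, 70.7, 131 and 119.7 with DEX in PS libraries. AS libraries had 146, 148, 212 and 138 and 106, 98.1, 115 and 168. The PS groups did not overlap and the AS groups did, and the log2 fold changes were -0.69 (adjusted p = 0.0307) and -0.41 (adjusted p = 0.218), against 0.05 in control. The PS call of Gbp7 was lost without DEX mouse 34, and the AS value was called without DEX mouse 72 (adjusted p = 0.068).

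The immunity-related GTPase gene Igtp was called in PS (log2 -0.49, adjusted p = 0.0964) just inside the threshold, and the call was lost in 15 of the 24 fits that left out 1 library, among them those without PS mice 2, 62, 68, 6, 52 or 56. Its log2 fold changes in control and AS were -0.29 and -0.35. Irgm1, a regulator of the same family, was not called in any comparison, with 0.14, 0.05 and -0.12 in control, PS and AS.

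**Figure D3:**
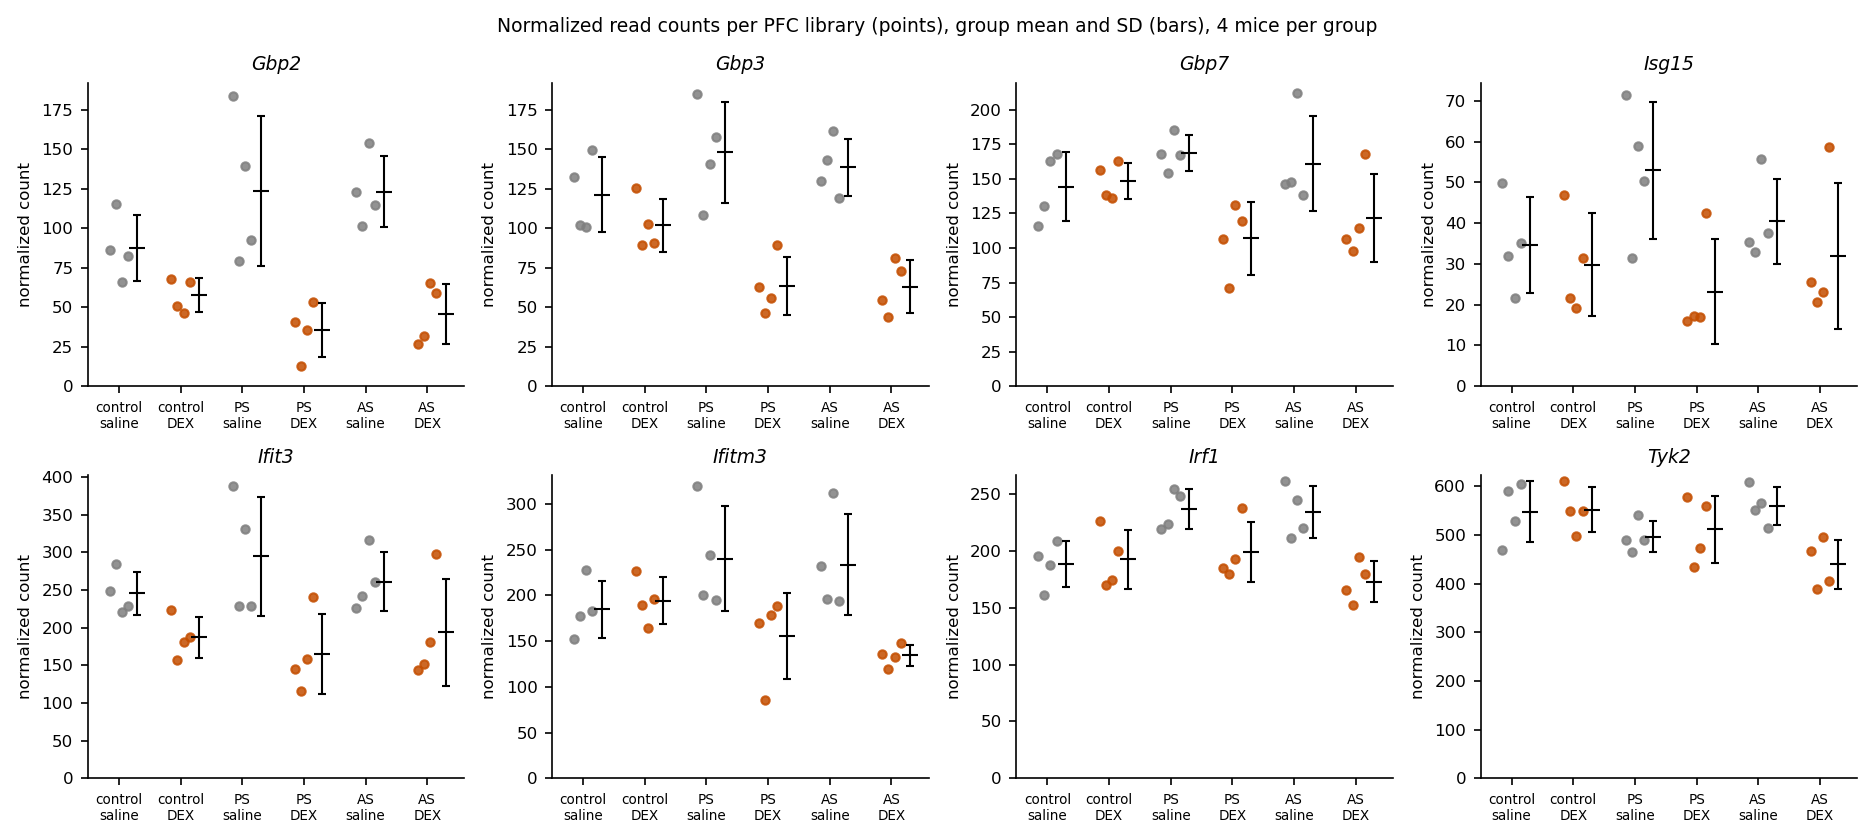
Normalized counts (y axis, from 0) of 8 members in each PFC library, by group (x axis). Points are libraries (grey saline, orange DEX) and bars are the mean and SD of 4 mice. For Gbp2 and Gbp3, the DEX points of PS and AS lie below every saline point of the same phenotype, while 1 DEX library of PS and 1 of AS stand out for Isg15, at 42.4 and 58.7.

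In the ISG15 system, Isg15 itself encodes a ubiquitin-like protein that is conjugated to other proteins. With saline it read 71.4, 31.3, 58.8 and 50.5 normalized counts in PS libraries, and with DEX 15.9, 17.2, 17.0 and 42.4. In AS it read 35.4, 32.8, 55.8 and 37.6 and 25.6, 20.6, 23.1 and 58.7, and in control 49.9, 32.0, 21.5 and 35.2 and 47.0, 21.7, 19.1 and 31.4. In each phenotype the DEX and saline groups overlapped, in PS and AS through 1 DEX library that was far above the other 3. The log2 fold change was -1.23 in PS (SE 0.36, limma, adjusted p = 0.0545), -0.43 in AS (adjusted p = 0.607) and -0.24 in control (adjusted p = 0.839). The PS call was lost in 6 of the 8 fits that left out a PS library (saline mice 2, 62 and 68, DEX mice 6, 34 and 52) and with edgeR.

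Trim25, an E3 ligase for ISG15 and for the RNA sensor RIG-I, read 208, 204, 259 and 165 with saline and 142, 135, 158 and 177 with DEX in AS libraries. The groups overlapped through saline mouse 44 and DEX mouse 72, and the log2 fold change was -0.44 (SE 0.15, limma, adjusted p = 0.0834). It was -0.31 in PS and 0.15 in control, neither called. The AS call was lost without any one of AS mice 8, 14, 40, 38 or 42. Over all 34 alternative settings it was lost in 10, and the log2 fold change ranged from -0.54 to -0.12.

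Of the 13 antiviral effectors and other induced genes, 2 were called lower in PS and 1 in AS, beside 2.62% and 4.95% of all genes, so that the AS count is near the background. Of their fold changes 12 and 11 were below 0, with medians of -0.39 and -0.43, against 0.05 in control. Ifit3 (chr19:34583531-34588731), which lies with Ifit1 and Ifit2 in a cluster on chromosome 19 and binds viral RNA together with them, read 389, 229, 331 and 229 with saline and 145, 115, 159 and 240.5 with DEX in PS libraries. In AS it read 226, 242, 316 and 261 and 144, 152, 181 and 298, and in control 248, 284, 221 and 229 and 223, 158, 181 and 187. The groups overlapped in each phenotype, through DEX mouse 56 in PS and DEX mouse 72 in AS. The log2 fold changes were -0.85 in PS (limma, adjusted p = 0.0245), -0.48 in AS (adjusted p = 0.232) and -0.39 in control (adjusted p = 0.409). The PS call was lost without saline mouse 2 or DEX mouse 34, and AS was called without DEX mouse 72 (adjusted p = 0.0473).

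Ifitm3 (chr7:141009586-141010770), which blocks the fusion of virus and cell membranes, was the effector called in both phenotypes. It read 319.8, 201, 244 and 196 with saline and 170.3, 85.3, 178 and 188 with DEX in PS libraries, 233, 196, 312 and 194 and 136, 119.7, 133 and 149 in AS, and 153, 177, 227 and 183 and 227, 189, 164 and 196 in control. DEX lay below saline without overlap in PS and AS. The log2 fold changes were -0.66, -0.77 and 0.08 (limma, adjusted p = 0.0803, 0.0252 and 0.924). The PS call was lost without saline mouse 2, saline mouse 62 or DEX mouse 34, and the AS call without saline mouse 40. Its relative Ifitm2, with which reads may be shared, was not called, with -0.64 in PS (adjusted p = 0.121) and -0.46 in AS (adjusted p = 0.269), although it was called in PS without saline mouse 68, DEX mouse 56 or AS DEX mouse 72. Among the other effectors, Xaf1, Bst2, Samd9l, Ifi35 and Ifit1 had log2 fold changes of -0.43, -0.62, -0.28, -0.52 and -0.61 in AS, none called by limma, and Xaf1 and Bst2 were called there by both edgeR and DESeq2. Ifit2, Ifi27 and Ly6e were not called, with values between -0.11 and 0.08 in PS and AS.

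Among the transcription factors, Irf1 was called lower in AS, from 261, 211, 245 and 220.4 with saline to 165, 152, 195 and 179.6 normalized counts with DEX. The groups did not overlap, and the log2 fold change was -0.44 (SE 0.11, limma, adjusted p = 0.0228). The DEX libraries of AS overlapped the control saline libraries given above. In PS the change was -0.26 (adjusted p = 0.31) and in control 0.03 (adjusted p = 0.955). The AS call was lost without saline mouse 8 or DEX mouse 42. Irf2 went the other way, reading 985, 952, 949 and 1004 with saline and 1079, 1069, 1132 and 1024 with DEX in control libraries. In PS it read 846, 925, 963 and 939.7 and 981, 1099.6, 1011 and 1051, and in AS 1020.3, 943, 1026 and 1089.7 and 997, 1073, 1145 and 1249. DEX libraries lay above saline without overlap in control and PS. The log2 differences of 0.15, 0.17 and 0.13 in control, PS and AS were not called one by one. Stat2, Irf3 and Irf9, parts of the type I response, were not called in any phenotype, with fold changes between -0.31 and 0.10 on the log2 scale.

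The receptors and kinases had medians of 0.07 in control, 0.02 in PS and -0.07 in AS. Of 6, 0 were called in PS and 2 in AS, both lower, beside 2.62% and 4.95% of all genes called lower. Tyk2, a kinase of the type I receptor, read 609, 552, 564 and 514 with saline and 468, 389, 495 and 405 with DEX in AS libraries. Ifnar2 read 333, 296, 325 and 327 and 259.7, 256, 286 and 282. Neither gene overlapped between DEX and saline in AS. Their log2 fold changes were -0.35 (SE 0.10, limma, adjusted p = 0.0371) and -0.24 (SE 0.08, adjusted p = 0.06), with 0.04 and -0.09 in PS and 0.01 and 0.14 in control. The call of Tyk2 was lost without AS mice 8, 42 or 72, and that of Ifnar2 without AS mice 8, 40, 38 or 42. Ifnar1, Ifngr1, Ifngr2 and Jak1, the other receptor chains and a kinase used by both receptors, had log2 fold changes between -0.07 and 0.08 in PS and AS, none called. Eif2ak2, the kinase that halts translation on double-stranded RNA, and Adar were not called, with -0.39 and 0.04 in PS, nor were Parp12 and Dtx3l, which modify proteins with ADP-ribose and ubiquitin, with -0.28 and -0.23.

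Averaged over control, PS and AS, the DEX effect was called for 10 members, 9 lower (Gbp2, Gbp3, Gbp7, Igtp, Isg15, Ifit3, Ifitm3, Xaf1 and Irf1) and 1 higher (Irf2, 0.15 log2 units, limma, adjusted p = 0.00907), where 8.01% of all genes were called lower and 7.46% higher. Gbp3 had the smallest adjusted p (log2 -0.87, SE 0.12, adjusted p = 9.32e-06) and Gbp2 the largest fall (log2 -1.31, adjusted p = 3.01e-05). Xaf1, a pro-apoptotic gene, was called by limma in this average (log2 -0.34, adjusted p = 0.0125). In single phenotypes limma did not call it, while edgeR and DESeq2 called it in AS. Over all 12 comparisons made, limma called 13 members at least once and 22 never, beside 20% of all genes called at least once. Bst2, Ifitm2 and Eif2ak2, which limma never called, were called by DESeq2.

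Whether the DEX effect differed between phenotypes was tested by the interaction. For PS against control, limma called 0 of 35 members and 0% of all genes, and 9 members had an unadjusted p under 0.05. There edgeR and DESeq2 also called 0 members. For AS against control, limma called 0 members and 0.348% of all genes, and 11 members had an unadjusted p under 0.05. There edgeR called 0 members and DESeq2 3 (Ifnar2, Gbp3 and Ifitm3), and their shares over all genes are not given. For AS against PS, 0 were called by limma, edgeR and DESeq2, 1 had an unadjusted p under 0.05, and limma called 0% of all genes. So the calls in PS and AS and their lack in control do not show by themselves that the effects differed. Of the 35 members, 26 had an interaction below 0 in PS (median -0.27) and 28 in AS (-0.30), both against the same control libraries, where the median over all genes tested was 0.00. Microglia markers were below 0 in 16 of 16 in both (-0.26 and -0.29, 0 called), and endothelial markers in 16 of 16 in both (-0.52, 0 called, and -0.89, 1 called). The members' medians were -0.16 and -0.02 with the endothelial covariate and -0.10 and -0.14 with the microglia covariate, with 0 members called in each. The largest interactions by p were those of Gbp3, Gbp7 and Ifitm2 in PS, at -0.98, -0.74 and -0.87 log2 units (limma, adjusted p = 0.352, 0.367 and 0.367), and those of Ifnar2, Gbp3 and Ifitm3 in AS, at -0.38, -0.91 and -0.85 (adjusted p = 0.12, 0.166 and 0.192). Ifnar2 stood in control at 271, 283, 285 and 284 with saline and 330.4, 295, 284 and 329.9 with DEX, as normalized counts, and the groups overlapped. The AS count was 4 without saline mouse 44, 2 without control DEX mouse 112 or AS DEX mouse 60, and 1 without PS DEX mouse 34 or AS saline mouse 14. Between AS and PS, the members with the smallest p were Tyk2, Isg15 and Ifnar2 (log2 -0.39, 0.80 and -0.15, limma, adjusted p = 1 each).

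Stressed and control mice were also compared after DEX. The mean log2 level of the 35 genes was 8.11 ± 0.12 in control, 7.93 ± 0.19 in PS and 7.94 ± 0.19 in AS (SD, n = 4), and the ranges overlapped. In PS against control, limma called 0 of 35 members and 0.199% of all genes, and 7 members had an unadjusted p under 0.05. For PS, edgeR called 0 members and DESeq2 1 (Ifitm2), and their shares over all genes are not given. In AS against control, limma called 0 members and 0.867% of all genes, and 10 members had an unadjusted p under 0.05. For AS, edgeR called 0 members and DESeq2 2 (Gbp3 and Tyk2), again without a share over all genes. The medians were -0.12 and -0.14 log2 units, again against 1 shared set of control libraries. Endothelial markers were below 0 in the same comparisons in 16 of 16 in PS (median -0.56, 0 called) and in AS (-0.82, 8 called), mural markers in 8 of 9 in PS (-0.40, 0 called) and 9 of 9 in AS (-0.60, 3 called), and red cell genes in 5 of 5 in both (-1.05 and -0.68, 0 called). Microglia markers were below 0 in 15 and 11 of 16 (-0.14 and -0.08, 0 called). With the endothelial covariate the median of the 35 members was -0.02 in PS and 0.00 in AS, with 0 called in both. With the microglia covariate it was -0.06 and -0.09, with 2 called in PS (Ifi27 and Ifnar1, 1 of them lower) and 0 in AS. There 3.5% and 1.16% of all genes were called. Ifitm2 read 128, 91.5, 89.4 and 103 in control and 45.3, 44.8, 57.1 and 82.7 in PS libraries with DEX, with no overlap (log2 -0.86, limma, adjusted p = 0.123). Gbp3 differed by -0.70 in PS (adjusted p = 0.166) and by -0.71 in AS (adjusted p = 0.128), where its AS libraries all lay below the controls. Tyk2 read 611, 548, 498 and 549.5 with DEX in control and 468, 389, 495 and 405 in AS, a difference of -0.33 without overlap (adjusted p = 0.15). Leaving out 1 library gave 0 to 2 calls in PS (2 without PS mouse 56, 1 without control mouse 112 or AS mice 44 or 60, and 0 without any other) and 0 to 2 in AS (2 without control mouse 112 or PS mouse 34, 1 without PS mouse 56 or AS mice 44 or 60, and 0 without any other).

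**Figure D4:**
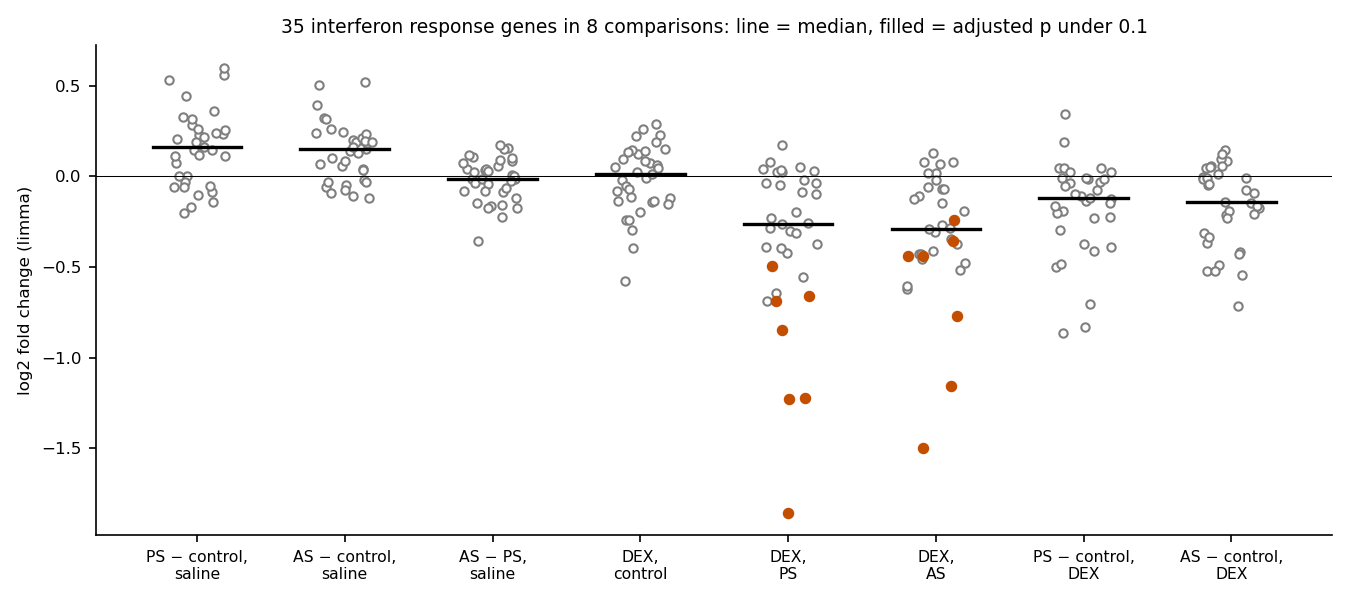
Log2 fold change (y axis, limma) of each of the 35 genes in 8 comparisons (x axis). The black line is the median and filled orange points have an adjusted p under 0.1. The medians lie at 0.16 and 0.15 for PS and AS against control with saline and at -0.26 and -0.29 for DEX in PS and AS, and the 14 filled points are in the last 2 of these.

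The rest of the pathway was followed in 28 measured genes of 74 looked for. DEX lowered 3 of these 28 in control, 7 in PS and 8 in AS and raised 1 in each, where 2.46%, 2.62% and 4.95% of all genes were called lower and 4.03%, 2.74% and 3.82% higher, with medians of -0.03, -0.12 and -0.20 log2 units. Tlr3, the endosomal sensor of double-stranded RNA, was called lower in each phenotype, from 358, 271, 263 and 298 to 222, 216, 200.2 and 254 normalized counts in control, from 339, 346, 344 and 316 to 189, 140.5, 212 and 201 in PS and from 299, 349.5, 364 and 302 to 179, 209, 229 and 245 in AS. No DEX library overlapped a saline library of its phenotype. Its log2 fold changes were -0.41, -0.87 and -0.61 (limma, adjusted p = 0.0669, 0.0001 and 0.00339). Ifit3b, a close copy of Ifit3 with which reads may be shared, was called lower in each, with -0.73, -0.92 and -0.40 log2 units in control, PS and AS (adjusted p = 0.000727, 5.28e-05 and 0.0631), also without overlap. Irgm2, a GTPase, had -0.21, -0.71 and -0.98, Rnf213, a ubiquitin ligase, -0.27, -0.73 and -0.72, and Ube2l6, the conjugating enzyme for ISG15, -0.02, -0.48 and -0.42, each called in PS and AS and not in control. Irgm2 (chr11:58199618-58222782) overlaps the member Igtp (chr11:58199556-58207591) on the plus strand, so that reads could be ambiguous between them in counting. Slfn2, a Schlafen gene of lymphoid quiescence, rose by 0.68, 0.70 and 0.57 and was called in each. Stat3, a transcription factor of cytokine signalling, had 0.07, 0.02 and -0.06 and the feedback inhibitor Socs3 0.03, 0.14 and -0.25, neither called in any phenotype.

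Markers of vascular and immune cells were followed in the same libraries. Of 16 endothelial markers, all measured, limma called 0 after DEX in control, 2 lower in PS (Tek and Itm2a) and 9 lower in AS, with medians of 0.16, -0.35 and -0.67 log2 units. Their summed normalized counts in PS were 9144, 10217, 11624 and 12466 with saline and 9321, 5913, 8573 and 12334 with DEX. In AS the sums were 12173, 8746, 13688 and 10659.7 with saline and 6462, 6363, 9757 and 6337 with DEX, and in control 9572, 11800.4, 12522 and 9618 and 15292, 12267, 10426 and 12644. The AS sums with DEX lay below those with saline apart from mouse 60, and the groups overlapped in PS and control. Itm2a had the highest level per kb of the list and none of the 16 was at 0. Of 16 microglia markers, all measured, limma called 1 higher and 2 lower in control, 5 lower in PS and 6 lower in AS, with medians of 0.02, -0.19 and -0.24.

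The microglia sums were 16818, 16225, 15768 and 15306 with saline and 13821, 14976, 13472 and 13914 with DEX in PS. AS sums were 17458, 16878, 17748 and 17241 and 14434, 13487, 16395 and 15660.0, and control sums 16060.2, 14672, 14501 and 14414 and 18503, 15266, 13731 and 15755. All 4 DEX sums lay below all 4 saline sums in PS and in AS, and the control sums overlapped. None of the 16 was at 0. After DEX, 9 mural markers had a median of 0.30 in control (0 called), -0.26 in PS (0 called) and -0.70 in AS (4 lower). For 7 of 8 leptomeningeal markers it was 0.35 in control (1 higher), -0.77 in PS (0 called) and -0.59 in AS (1 lower). In the same order it was, for 5 of 8 border macrophage markers, 0.47 (1 higher), -0.57 (1 higher, 1 lower) and -0.53 (2 lower), and for 5 hemoglobin and red cell genes 0.36, -0.80 and -0.19 (0 called), and for 8 neuron markers -0.02, 0.06 and 0.10 (0 called). The 8 oligodendrocyte markers stood at -0.31 in control (2 lower), 0.14 in PS (0 called) and 0.42 in AS (2 higher), and 10 astrocyte markers at 0.13 (2 higher), -0.15 (2 higher, 1 lower) and -0.10 (1 higher, 2 lower). Which of these cells the member transcripts came from was not tested.

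With the mean log2 level of the endothelial markers in each library as a covariate, which was added after seeing these values, 3 members remained called in PS (Gbp2, Gbp3 and Ifit3) and 1 in AS (Gbp3), where 4.41% and 2.73% of all genes were called in either direction. The AS count is near that background. With the microglia markers as the covariate, 3 of the 7 remained in PS (Gbp2, Gbp3 and Gbp7) and 1 in AS (Gbp3), and Ifngr1 was called higher in PS and in control. There 19.8% of all genes were called in PS, 6.30% in AS and 9.76% in control. With this covariate, 4 of 35 members were thus called in PS and 1 in AS, both shares below those of all genes. The median of the 35 members was -0.17 in PS and -0.11 in AS with the endothelial covariate and -0.14 in both with the microglia covariate. Gbp3 was the member called in PS and AS under both covariates, while the log2 fold change of Gbp2 in AS was -0.76 with the endothelial and -1.05 with the microglia covariate (limma, adjusted p = 0.408 and 0.182). Marker levels were themselves measured after DEX, so these fits describe which values move together in the same libraries.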

How the data were processed

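Poly(A) RNA of dissected PFC from 24 mice, 6 groups of 4, was sequenced. According to the study's methods and the submitters' processing notes, the authors trimmed reads with fastp 0.20.1, aligned them to the mouse genome with HISAT2 2.2.1, and counted reads on genes with featureCounts (Subread 2.0), after quality control with FastQC and Picard. The deposited signal values are counts that the authors divided by 1 DESeq2 (1.36.0) size factor per library, so differences in total RNA per sample are removed. The smallest steps of these values gave back whole reads for 100% of values (within 0.01 read), from which the depths were taken. Replicate pairs differed by a chi-square of 5.68 to 80.9 per gene, so no library was counted as a repeat of another. Whether libraries of a group were handled in separate batches is not given in the sources used here.

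The unit was not the raw counts, so the test was limma 3.58.1 (R 4.3.3, with an intensity trend) on log2(normalized count + 1), which understates changes of low genes. All 24 libraries entered 1 model with a mean per group, and p-values were adjusted by Benjamini-Hochberg over the 14074 genes, with a call under 0.1. The 12 comparisons were the DEX effect in each phenotype and averaged, phenotypes against each other with saline and with DEX, and 3 interactions. The fit was tested on simulated data, and no result of that test is given here. Alternatives were edgeR 4.0.16 and DESeq2 1.42.0 on the recovered reads, a pseudocount of 8, filters on low values (a mean of at least 100 normalized counts, or at least 10 reads in each library), quantile normalization, depth as a covariate, a fit of only the groups compared, and leaving out each library. Endothelial and microglia marker levels as covariates were added after seeing the data. Shares of all genes called are limma's, from the main fit or, where stated, from the covariate fits. None is given for edgeR, DESeq2 or fits that left out a library.

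The members and all lists were chosen with earlier results of these data known. Values per library, in some or all groups, are given by rule for the 4 called members with the largest change in each DEX effect. The same holds for the 2 members with the smallest p (or up to 3 called members) in each comparison of phenotypes, and for the 3 with the smallest p in each interaction. For Ifitm2, Tyk2 and Ifnar2, some groups of their interactions are not printed. Members named beyond that rule were chosen after their values were seen. Coordinates are from GENCODE vM21 and promoters from RefSeq, both on GRCm38 (mm10). The 3 deposited tables of the authors' own comparisons, which hold fold changes and p-values, were not used.

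Values of some single genes on the lists are not reported here.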

Additional observations from a re-analysis of the deposited data

Results flagged for a closer look

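Of 90 sets of 4 libraries tested for the named members, 4 had a library whose gap to its nearest neighbour was large enough, as a share of the group's range, to pass Dixon's critical value, which chance gives in about 1 in 20. Isg15 read 42.4 normalized counts in PS DEX mouse 56, against 15.9 to 17.2 in the other 3 libraries of the group. Isg15 also read 58.7 in AS DEX mouse 72, against 20.6 to 25.6 in the rest. Gbp7 read 212 in AS saline mouse 40, against 138 to 148 in the others. Ifnar2 read 271 in control saline mouse 106, against 283 to 285 in the others.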

How the results depend on the processing

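No paired analysis was possible because no mouse number recurs between groups. Of 591 recomputed counts and mean levels, 557 stayed close to the main value and 34 moved. A mean level was held close if it differed by less than the pooled SD between libraries, whatever its sign. Counts were held close by their ratio to the main count, and counts of 0 that stayed at 0 were among them. No called fold change of a named member changed sign, and 20 of 2424 recomputed fold changes did, all of values not called. With DESeq2, 1 member was called in PS against control after DEX, 2 in AS against control after DEX and 3 in the interaction of AS with control, where limma called 0. With the endothelial covariate the calls were 3 for DEX in PS, 1 in AS and 6 averaged, beside 4.41%, 2.73% and 12.9% of all genes. With the microglia covariate they were 1 for DEX in control, 4 in PS, 1 in AS and 5 averaged, beside 9.76%, 19.8%, 6.3% and 23.9% of all genes. In PS against control after DEX they were 2 with that covariate, beside 3.5% of all genes. Leaving out 1 library gave 0 to 1 calls for DEX in control, 3 to 8 in PS, 3 to 11 in AS and 10 to 13 averaged. It gave 0 to 2 in PS and 0 to 2 in AS against control after DEX, and 0 to 4 in the interaction of AS with control. The cause was not tested for any of these. A fit of only the groups compared was not run for the averaged effect, which uses every group. With 4 mice per group, members with few reads such as Isg15 had standard errors above those of abundant members such as Tyk2, and small changes in them were not detectable.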
